A study of Mus musculus with 4 samples.

Results

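The 37 genes described here are immediate early genes, which cells switch on within minutes of a stimulus, together with further genes that respond to stress and to tissue digestion. They were taken as a named list from the 32285 genes of a single-cell UMI table, with no threshold on their values. The table holds 6054 CD45+ (immune) cells from the esophagus of 10 mice, 5 of them wild-type and 5 with a knock-out of IL20RB. The animals carried a model of eosinophilic esophagitis (allergic disease of that organ). All 10 mice, of both genotypes, received 1 nmol MC903 (calcipotriol, a vitamin D analogue) and 5 mg/mL ovalbumin (OVA) on the ear daily for 14 days, then OVA in the drinking water at 1.5 g/L for 4 days and 50 mg OVA by gavage on days 15 and 17. They were sampled on day 18. IL20RB is a chain of the receptors that bind the cytokines of the IL-20 family. The sources used here give no strain, sex or age, and no unchallenged animal is among the samples. Each animal had its own hashtag antibody; all were pooled before the sort and run in 2 wells, so the animal is the replicate and the 2 wells hold cells of the same pool.

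Fos and Jun proteins pair to form AP-1, a transcription factor that is among the first to appear after growth factor, cytokine or stress signalling. Its induction rests on factors already present in the cell, and it is followed by feedback: dual-specificity phosphatases switch MAP kinases off, Zfp36 proteins speed the decay of short-lived mRNAs, and Nfkbia and Tnfaip3 hold NF-kB back. Enzymatic digestion of tissue at body temperature is known to induce many of the same genes and the heat shock chaperones Hspa1a and Hspa1b. Here the tissue was minced and digested for 30 min at 37 °C with 0.5 mg/mL collagenase IV and 10 U/mL DNase I before sorting. No undigested control is among the samples, and whether these transcripts were present before digestion was not tested.

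Promoter windows of 6 genes are shown because these genes stand for the main patterns below: the near-identical chaperone pair that was low in neutrophil-like cells, and 4 of the genes that were high there. They come from the RefSeq promoter table of build GRCm38.p6, which covers 250 bases before to 50 bases after each gene start and matched 30 of the 37 genes. Capitals mark the motif that was searched for on both strands.
Hspa1a, chr17:34972193-34972320, minus strand: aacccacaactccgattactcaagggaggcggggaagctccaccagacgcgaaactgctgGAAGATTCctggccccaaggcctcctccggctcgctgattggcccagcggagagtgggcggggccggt
Hspa1b, chr17:34959275-34959402, minus strand: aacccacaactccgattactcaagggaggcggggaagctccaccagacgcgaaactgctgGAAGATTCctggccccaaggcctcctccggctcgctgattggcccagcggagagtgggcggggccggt
Nfkbia, chr12:55492637-55492706, minus strand: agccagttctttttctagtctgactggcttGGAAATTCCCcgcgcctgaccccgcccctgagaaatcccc
Ier3, chr17:35821591-35821660, plus strand: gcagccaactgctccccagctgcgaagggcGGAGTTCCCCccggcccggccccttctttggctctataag
Dusp1, chr17:26508578-26508645, minus strand: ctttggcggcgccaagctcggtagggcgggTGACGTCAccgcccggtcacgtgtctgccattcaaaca
Zfp36, chr7:28379247-28379316, minus strand: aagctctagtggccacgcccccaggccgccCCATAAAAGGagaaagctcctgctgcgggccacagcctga
The capitals are a heat shock element (GAA, any 2 bases, TTC) in Hspa1a and Hspa1b, an NF-kB site in Nfkbia and Ier3, a cAMP response element (CRE, TGACGTCA) in Dusp1 and a CArG box, the site of serum response factor, in Zfp36. The Hspa1a and Hspa1b windows differ at 0 of 128 bases and their 300-base promoters at 4. An NF-kB site was found in 8 of the 30 promoters (Fos, Fosb, Fosl2, Ier3, Maff, Nfkbia, Nr4a1 and Tnfaip3) and in 5.14% of the promoters of 27025 genes. A CArG box was found in 3 (Dusp5, Egr2, Zfp36; 1.81% of genes), a CRE in 3 (Btg2, Dusp1, Maff; 2.03%), a heat shock element in 4 (Fosl2, Hspa1a, Hspa1b, Jun; 9.04%) and an AP-1 site (TGANTCA) in 2 (Tnfaip3, Zfp36l1; 8.97%). These matches describe the letters of the windows and say nothing about which factor was bound.

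The animals contributed 271 to 897 cells and 1805883 to 5666994 UMIs each. Il20rb itself gave 10 UMIs in the wild-type and 6 in the knock-out animals, too few to check the genotype labels. Cells were grouped into 47 clusters after the 37 genes and 61 related genes had been left out of the clustering, and clusters were named from markers, so that each class is called X-like. For every class the markers at 1 log2 unit or more above all other cells included its defining genes, such as S100a9 in neutrophil-like, Apoe in macrophage-like, Cd209a in cDC2-like, Irf8 in cDC1-like, Gata3 in ILC2-like and Cd3d in T-like cells; in monocyte-like cells 5 of 12 markers reached that margin. B-like, mast or basophil-like, plasma-like and fibroblast-like clusters (100, 23, 20 and 10 cells) were named too. None of these had 10 or more cells in 3 animals, so they are not among the 10 classes compared below. The remaining 8 clusters, with 976 cells, stayed unnamed. A separate marker gate gave each cell the type with the most markers detected (3 or more, ties left out). Of the 90 NK-like cells it placed 37 as NK and 40 as T cells, so by that gate NK-like levels are those of a mix. The median depth differed between classes, from 1817 UMIs per cell in neutrophil-like to 8065 in cDC1-like and 11652 in cycling-like cells. The wells shared 2 cell barcodes. No cell held fewer than 1000 UMIs, so shallower cells are not among them. Summed markers of eosinophils were low in every animal (3.39 to 20.5 CPM), as were those of epithelium (1.76 to 31.6 CPM) and endothelium (12.7 to 40.5 CPM). Fibroblast markers ranged from 1.20 to 83.5 CPM, the highest in a wild-type animal. Their part in the results was not tested.

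The 37 genes made up 1.58% of all UMIs, 556250 of 35317007, but their level differed widely between classes. Levels are UMIs scaled to the total of a class in an animal (CPM), given as mean ± SD over the animals with 10 or more cells of that class. These are 3′ end counts, so a gene is compared across classes and not with other genes. In neutrophil-like cells the summed level was 65615 ± 8290 CPM (n = 7 animals, lowest 48920, median 67959, highest 74321). Monocyte-like cells followed with 18436 ± 2617 CPM (n = 9, lowest 14581, median 17663, highest 22711). The lowest neutrophil-like animal was above the highest monocyte-like animal. Next came cDC2-like (15545 ± 2726 CPM, n = 10), ILC2-like (14972 ± 3043, n = 9) and macrophage-like cells (13706 ± 2425, n = 10), whose ranges over animals overlapped with each other and with monocyte-like cells. Migratory DC-like (11323 ± 4337 CPM, n = 4), T-like (9592 ± 1604, n = 6), cycling-like (9114 ± 1907, n = 7) and NK-like cells (7981 ± 2048, n = 5) had lower means. Migratory DC-like animals ran from 6254 to 15046 CPM and overlapped with cDC2-like, ILC2-like and macrophage-like animals. The highest T-like and cycling-like animals, at 11689 and 11834 CPM, did so too. Of the 10 classes compared, cDC1-like cells had the lowest mean, 5164 ± 809 CPM (n = 9, lowest 3885, median 5094, highest 6519). Single cells gave the same order at its ends: the median share of a cell's UMIs in these genes was 6.24% in neutrophil-like and 0.358% in cDC1-like cells. Outside this order, the small named classes had 30531 CPM (fibroblast-like), 23698 CPM (mast or basophil-like), 5937 CPM (B-like) and 3687 CPM (plasma-like) over pooled cells.

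**Figure D1:**
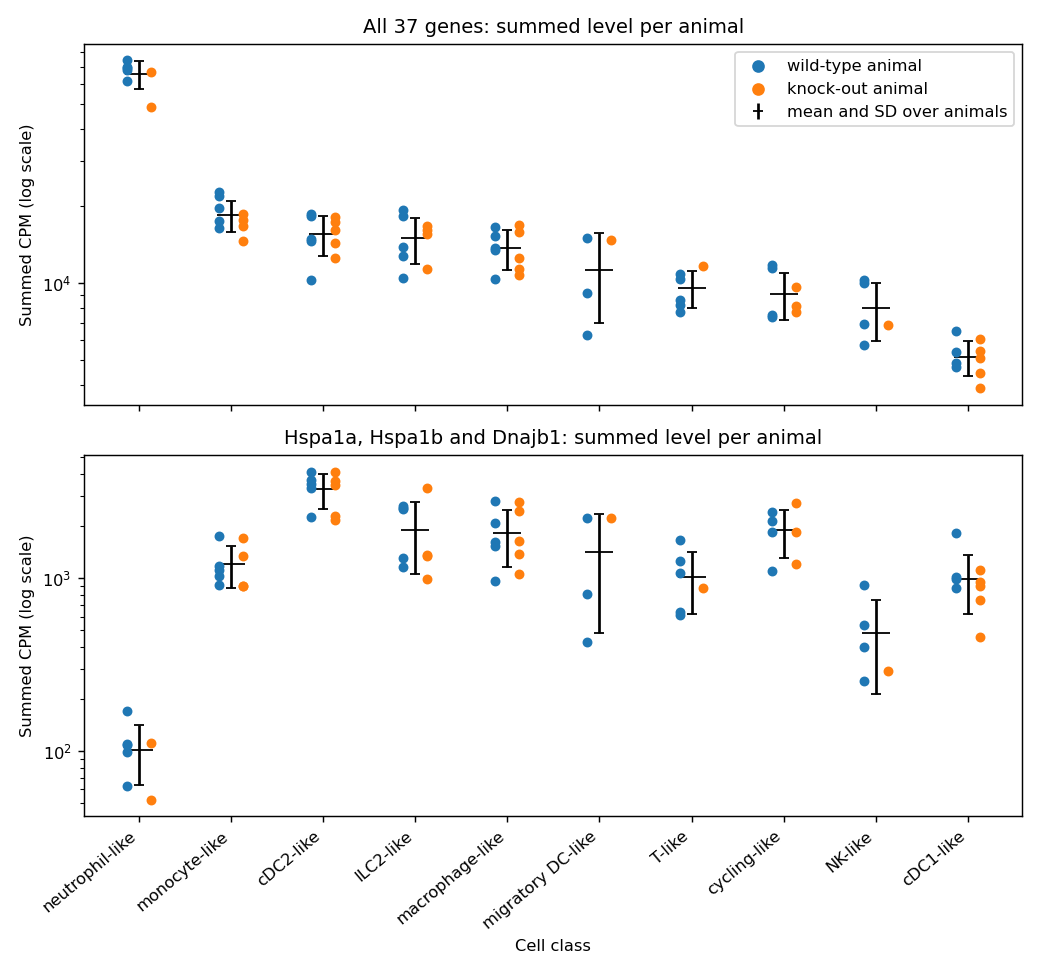
Summed level of all 37 genes (top) and of the 3 inducible chaperones Hspa1a, Hspa1b and Dnajb1 (bottom) in CPM on a log scale, for each cell class; each point is an animal, blue wild-type and orange knock-out, and the black bars are mean ± SD. Neutrophil-like cells are highest in the upper plot (65615 ± 8290 CPM) and lowest in the lower plot (102 ± 38.5 CPM).

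Of the 37 genes, 27 had their highest mean level in neutrophil-like cells, and for 14 of these the neutrophil-like animals lay wholly above those of the next class. The exceptions were Hspa1a and Hspa1b (highest in cDC2-like), Dnajb1 and Cd69 (ILC2-like), Nr4a3, Zfp36l1 and Rgs1 (migratory DC-like), Myc and Nr4a2 (NK-like) and Klf4 (monocyte-like). The lowest mean was found in cDC1-like cells for 11 genes and in migratory DC-like cells for another 11. These counts of means and ranges were not made over all genes, so they only describe the list. In the test of neutrophil-like cells below, 29.8% of all genes were called higher.

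**Figure D2:**
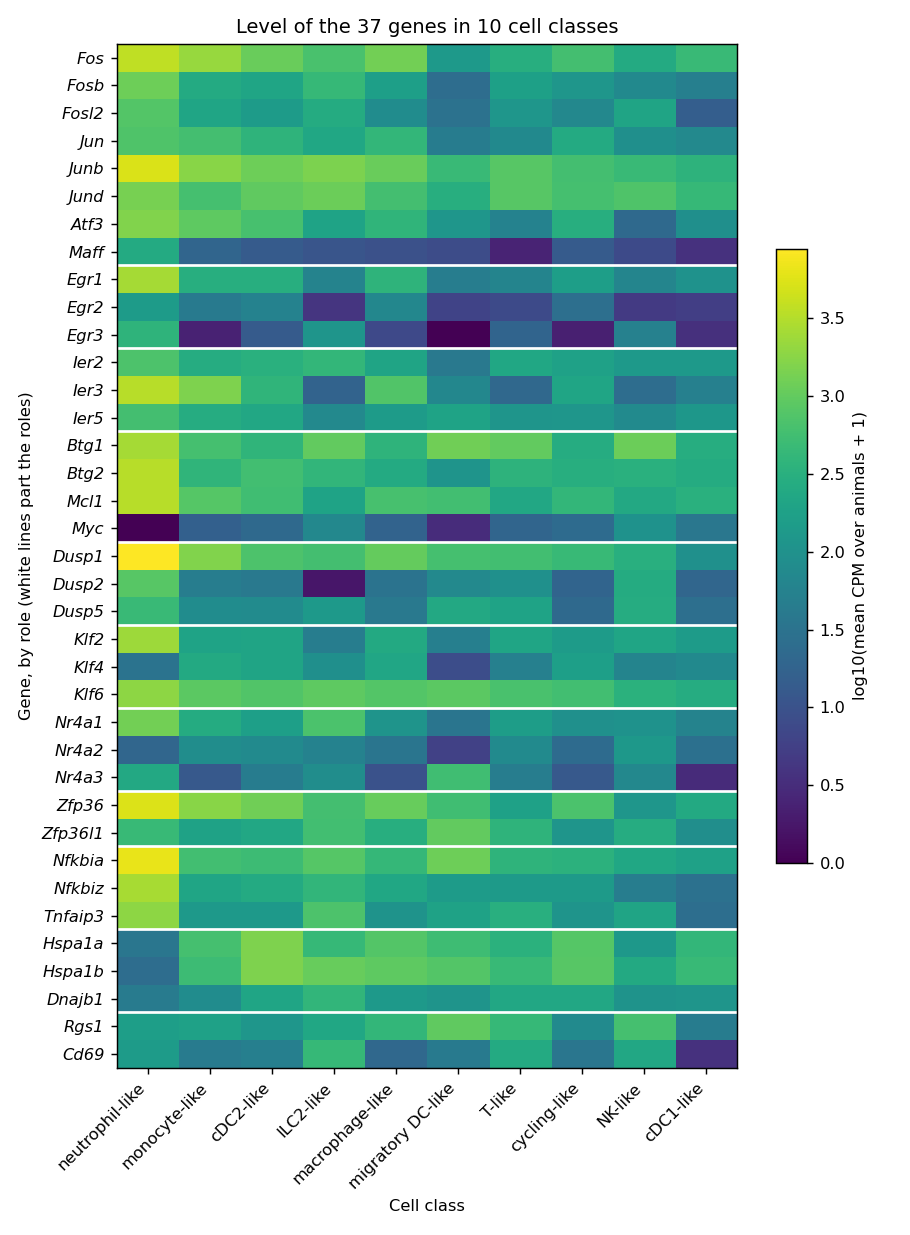
Mean level of each of the 37 genes (rows, grouped by role between white lines) in 10 cell classes (columns), as log10 of the mean CPM over animals plus 1. The neutrophil-like column is brightest for most rows and dark for Hspa1a, Hspa1b, Dnajb1 and Myc. Dusp1 in neutrophil-like cells stands at 8873 ± 701 CPM.

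Each of 5 classes was tested against the mean of the other 4 within animals (edgeR quasi-likelihood test over all 6072 genes, Benjamini-Hochberg adjusted p under 0.05). Monocyte-like cells had 23 of 36 tested genes higher, where 30.6% of all genes were called higher, and 4 lower, where 22.8% were called lower. In cDC2-like cells 21 were higher (all genes 21.6%) and 1, Btg1, was lower (all genes 10.1%). Macrophage-like cells had 16 higher (all genes 29.1%) and 10 lower (all genes 18.1%), and ILC2-like cells 18 higher (all genes 24.1%) and 13 lower (all genes 31.3%). In cDC1-like cells 0 were higher (all genes 20.8%) and 28 lower (all genes 18.1%), with 1 more gene, Myc, called higher when neutrophil-like and T-like cells joined the comparison. The median log2 difference over the 36 genes was 0.66 in monocyte-like, 0.55 in cDC2-like, 0.36 in ILC2-like, 0.12 in macrophage-like and -1.50 in cDC1-like cells, and the median over all genes lay between -0.08 and 0.05. With 7 classes compared, 10 genes instead of 16 were higher in macrophage-like cells, and with either well alone 6 instead of 10 were lower there. The percentages for all genes include the genes that made the clusters, and the 37 genes do not.

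Neutrophil-like and T-like cells were tested in a second fit with 7 classes (5506 genes), a fit added after the data had been seen because few knock-out animals had enough of these cells: 2 for neutrophil-like and 1 for T-like cells. In neutrophil-like cells 30 of 37 genes were higher (all genes 29.8%) and 5 were lower (all genes 41.7%), with a median log2 difference of 2.89 against -0.47 over all genes. The 5 lower genes were Hspa1a, Hspa1b, Dnajb1, Klf4 and Myc, and Nr4a2 and Rgs1 passed in neither direction. In T-like cells 4 were higher (all genes 23.1%) and 19 lower (all genes 15.9%), with a median of -0.75 against 0.07. The 4 were Cd69, Rgs1, Dusp2 and Btg1; without knock-out animal 2, or without wild-type animal 1 or 4, only 2 genes were called higher. Scaling by total UMIs alone moved the median of all genes by -0.55 in neutrophil-like, 0.34 in T-like, 0.24 in ILC2-like, -0.15 in cDC1-like and -0.12 in monocyte-like cells. It left 30 genes higher and 6 lower in neutrophil-like cells and gave 7 higher and 15 lower in T-like cells. The share of called genes that were higher then moved from 41.7% to 29.9% in neutrophil-like, 59.3% to 78.9% in T-like, 43.6% to 59.0% in ILC2-like, 53.5% to 38.2% in cDC1-like and 57.3% to 46.0% in monocyte-like cells.

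**Figure D3:**
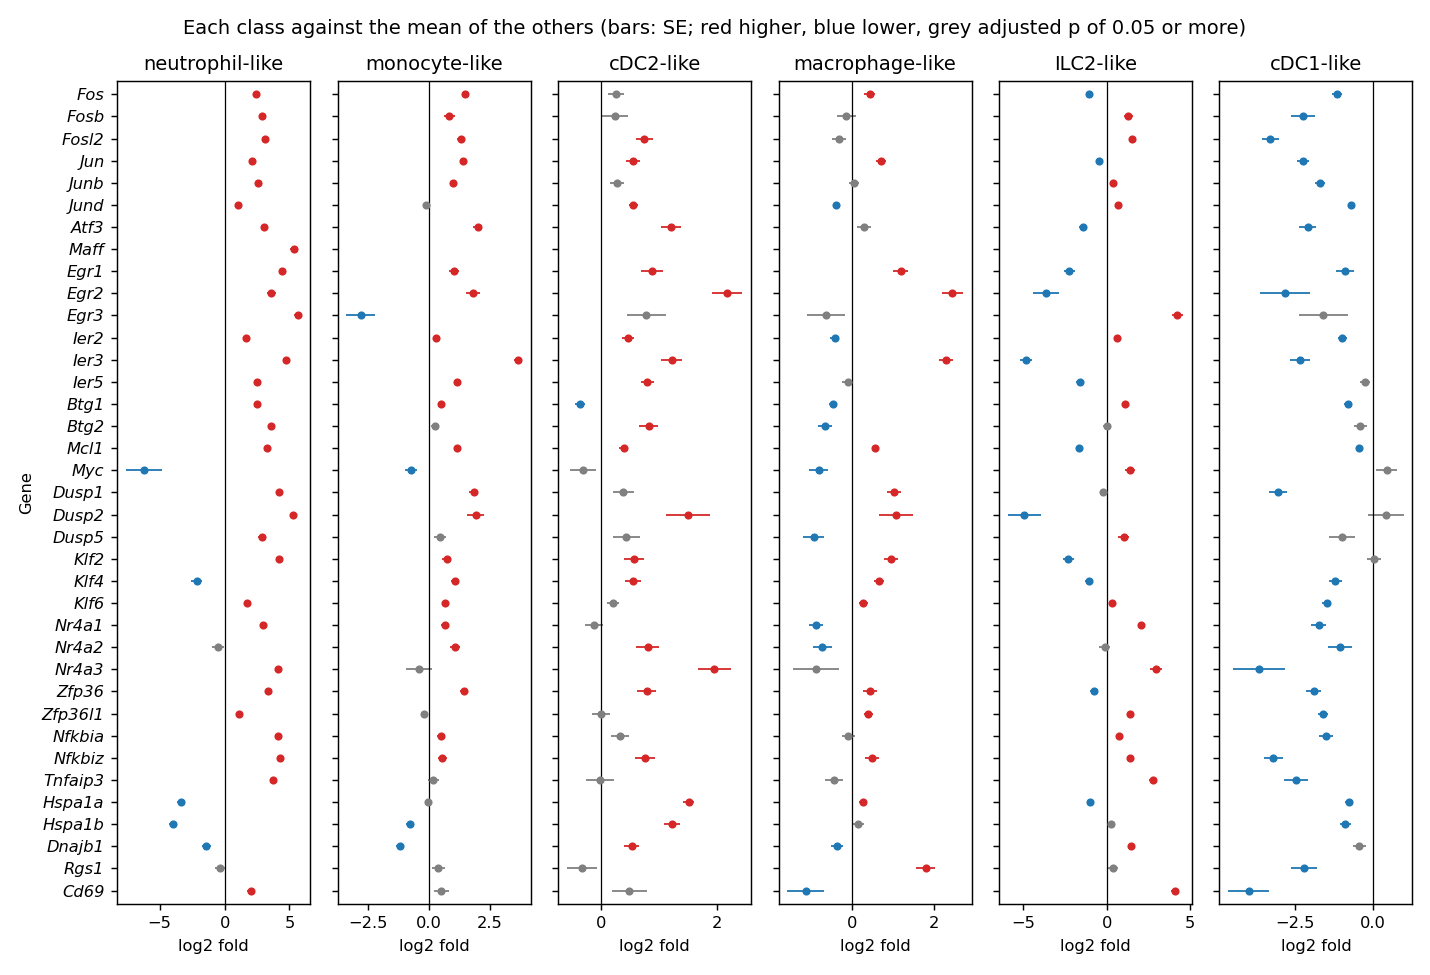
Log2 difference of each gene between a class and the mean of the other classes, with its standard error; red is higher, blue is lower and grey did not pass an adjusted p of 0.05. The neutrophil-like panel comes from the fit with 7 classes and the other panels from the fit with 5, and each panel has its own horizontal scale. In neutrophil-like cells 30 of 37 genes are red, and in cDC1-like cells 28 of 36 are blue.

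Among the AP-1 genes, Fos, the partner of Jun proteins, was highest in neutrophil-like cells at 3762 ± 406 CPM (n = 7, lowest 3202, median 3700, highest 4488). In monocyte-like cells it stood at 2153 ± 270 CPM (n = 9, lowest 1762, median 2159, highest 2471), and in migratory DC-like cells at 135 ± 123 CPM (n = 4). The neutrophil-like animals lay wholly above the monocyte-like ones, and Fos passed as higher in both classes (log2 2.46, SE 0.16, and 1.51, SE 0.13). All 8 genes of the group, which includes Fosb, Fosl2, Jun, Junb, Jund and the bZIP factors Atf3 and Maff, were higher in neutrophil-like cells. Maff stood at 261 ± 132 CPM in neutrophil-like cells against 18.6 ± 11.4 in monocyte-like cells, the next class. Neutrophil-like cells held 227 of its 626 UMIs, so it was found in other cells as well. In monocyte-like cells 6 of 7 tested passed as higher (all but Jund), led by Atf3 (log2 2.01, SE 0.18). In cDC2-like cells 4 were higher (Atf3, Fosl2, Jun, Jund), in macrophage-like cells 2 were higher (Jun, Fos) and Jund was lower, and in cDC1-like cells all 7 were lower. ILC2-like cells divided the group: Fosb, Fosl2, Junb and Jund were higher and Fos, Jun and Atf3 lower, with Fos at 642 ± 348 CPM and Fosl2 at 265 ± 68.5 CPM (n = 9). T-like cells had 5 of 8 lower and 0 higher.

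The EGR genes encode zinc finger factors downstream of MAP kinase and, in lymphocytes, antigen receptor signalling. Egr1 stood at 2577 ± 627 CPM in neutrophil-like cells (n = 7, lowest 1489, median 2816, highest 3211) and at 364 ± 104 CPM in macrophage-like cells (n = 10, highest 519). The ranges did not overlap. Egr1 and Egr2 passed as higher in neutrophil-like, monocyte-like, macrophage-like and cDC2-like cells and as lower in ILC2-like and cDC1-like cells. Egr3 followed another pattern: it was higher in ILC2-like cells (log2 4.24, SE 0.35; 113 ± 65.6 CPM, n = 9) and lower in monocyte-like cells (log2 -2.81, SE 0.60; 1.42 ± 1.50 CPM, n = 9). It was also higher in neutrophil-like cells (367 ± 92.7 CPM, n = 7). No Egr3 UMI was seen in 50 migratory DC-like cells, which allows a level of up to 8.03 CPM.

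Of the IER genes, Ier3, a stress-induced survival gene, varied most between classes. It stood at 3308 ± 1517 CPM in neutrophil-like cells (n = 7, lowest 816, median 3042, highest 5695), at 1519 ± 454 CPM in monocyte-like cells (n = 9, lowest 603, median 1682, highest 1940) and at 16.8 ± 14.2 CPM in ILC2-like cells (n = 9). The neutrophil-like and monocyte-like ranges overlapped, and the ILC2-like level rested on 16 UMIs. Ier3 gave the largest difference of the 36 genes in monocyte-like cells (log2 3.68, SE 0.16, edgeR adjusted p = 1.36e-20) and was also higher in macrophage-like (2.29, SE 0.17) and cDC2-like cells (1.22, SE 0.18). In ILC2-like cells it was lower by the fit (log2 -4.85, SE 0.36). All 3 IER genes were higher in neutrophil-like, monocyte-like and cDC2-like cells and all 3 lower in T-like cells. Ier2 was the only one higher in ILC2-like cells, and it was lower in macrophage-like cells.

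The growth and survival regulators were divided. Mcl1, a BCL2-family survival protein on which neutrophils depend, stood at 3384 ± 523 CPM in neutrophil-like cells (n = 7, lowest 2506, median 3387, highest 4122). The next class, monocyte-like cells, had 817 ± 105 CPM (n = 9, highest 985), and ILC2-like cells had the lowest mean, 194 ± 61.7 CPM. The antiproliferative genes Btg1 and Btg2 were also higher in neutrophil-like cells (2602 ± 563 and 3374 ± 674 CPM). Myc, a driver of growth and proliferation, gave 0 UMIs among the 1182664 UMIs of 584 neutrophil-like cells, which allows a level of up to 2.54 CPM, and it passed as lower there. Its highest means were 104 ± 88.3 CPM in NK-like cells (n = 5) and 69.6 ± 34.5 in ILC2-like cells (n = 9), where it passed as higher (log2 1.40, SE 0.31). Btg1 was higher in ILC2-like, T-like and monocyte-like cells and lower in cDC2-like, macrophage-like and cDC1-like cells, but its monocyte-like value fell below 0 in the comparison of 7 classes (0.51 and -0.08). The lower Myc of monocyte-like and macrophage-like cells (-0.73 and -0.80) turned to 0.50 and 0.46 there, neither passing.

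Dusp1, which inactivates p38 and JNK, stood at 8873 ± 701 CPM in neutrophil-like cells (n = 7, lowest 7894, median 8827, highest 9712). Monocyte-like cells had 1565 ± 318 CPM (n = 9, highest 2103) and cDC1-like cells 95.7 ± 60.9 CPM (n = 9, lowest 0, median 87.4, highest 175). No 2 of these 3 ranges overlapped. Dusp1 passed as higher in neutrophil-like (log2 4.16, SE 0.19), monocyte-like (1.84, SE 0.17) and macrophage-like cells (1.03, SE 0.17) and as lower in cDC1-like (-3.05, SE 0.28) and T-like cells. Dusp2 and the ERK phosphatase Dusp5 followed other patterns in lymphoid cells. Dusp2 stood at 269 ± 147 CPM in NK-like and 96.4 ± 54.8 CPM in T-like cells, and ILC2-like cells held 1 Dusp2 UMI in 1028136, under the 2.92 CPM that 3 UMIs would give. Dusp5 was higher in ILC2-like cells (129 ± 53.7 CPM) and lower in macrophage-like cells (38.4 ± 30.1 CPM).

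Of the KLF factors, Klf6 was broadly present: 1860 ± 371 CPM in neutrophil-like cells (n = 7, lowest 1324, median 1764, highest 2484), 930 ± 261 CPM in ILC2-like cells, and 274 ± 74.0 CPM in cDC1-like cells at the low end. Klf2, a factor of quiescence and of T cell exit from tissue, stood at 2347 ± 1005 CPM in neutrophil-like cells and at 46.9 ± 36.7 CPM in ILC2-like cells. Klf2 passed as lower in ILC2-like cells (log2 -2.30, SE 0.31), and in T-like cells it did not pass. Klf2 passed as higher in monocyte-like (0.73) and cDC2-like cells (0.56), values that turned to -0.12 and -0.26 in the comparison of 7 classes. It also passed as higher in macrophage-like cells (248 ± 95.1 CPM), where its direction did not turn. Klf4, which takes part in monocyte differentiation, was higher in monocyte-like (log2 1.06, SE 0.14), macrophage-like (0.66, SE 0.13) and cDC2-like cells (0.55, SE 0.13) and lower in neutrophil-like cells, at 31.2 ± 39.4 CPM.

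Nr4a1, Nr4a2 and Nr4a3 encode orphan nuclear receptors that are induced, among other signals, by antigen receptor and calcium signalling. Nr4a1 stood at 1258 ± 537 CPM in neutrophil-like cells (n = 7, lowest 566, median 992, highest 1987) and at 684 ± 232 CPM in ILC2-like cells (n = 9, lowest 240, median 691, highest 1031). Those ranges overlapped, and both classes passed as higher (ILC2-like: log2 2.07, SE 0.16). Nr4a3 was highest in migratory DC-like cells, with 558, 238, 513 and 909 CPM in the 4 animals that had enough of these cells, and it passed as higher in neutrophil-like, ILC2-like and cDC2-like cells. Nr4a2 was highest in NK-like cells (129 ± 61.5 CPM) and passed as higher in monocyte-like and cDC2-like cells. All 3 receptors were lower in cDC1-like cells.

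Zfp36 (tristetraprolin) and Zfp36l1 bind AU-rich elements and speed mRNA decay. Zfp36 stood at 5512 ± 1722 CPM in neutrophil-like cells (n = 7, lowest 3586, median 5081, highest 8291) and at 1750 ± 264 CPM in monocyte-like cells (n = 9, highest 2279). It was lowest in NK-like cells (116 ± 137 CPM) and T-like cells (181 ± 90.3 CPM). Its relative Zfp36l1 was highest in migratory DC-like cells (994 ± 468 CPM, n = 4) and passed as higher in ILC2-like cells (log2 1.40, SE 0.13), where Zfp36 was lower (-0.78, SE 0.21).

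The NF-kB feedback genes encode the inhibitor IkB-alpha (Nfkbia), the atypical IkB protein IkB-zeta (Nfkbiz) and the ubiquitin-editing enzyme A20 (Tnfaip3). Nfkbia stood at 6585 ± 1053 CPM in neutrophil-like cells (n = 7, lowest 4824, median 6877, highest 7652), followed by migratory DC-like cells with 1194 ± 408 CPM (n = 4, highest 1574). All 3 genes were higher in neutrophil-like cells (log2 3.74 to 4.25) and in ILC2-like cells (0.75 to 2.76), and all 3 lower in cDC1-like cells (-3.20 to -1.51). Tnfaip3 was 701 ± 274 CPM in ILC2-like cells and 25.8 ± 29.5 CPM in cDC1-like cells. In monocyte-like cells Nfkbia and Nfkbiz passed as higher against the 4 other classes (log2 0.51 and 0.54), but both values were below 0 once neutrophil-like and T-like cells were among the others (-0.11 for each). Nfkbiz did the same in macrophage-like cells (0.49 and -0.15).

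The inducible chaperones were low in neutrophil-like cells, where 30 other genes of the list were higher. Hspa1a and Hspa1b encode the stress-induced HSP70 proteins, and Dnajb1 is their HSP40 partner. Because Hspa1a and Hspa1b are near-identical copies, the division of reads between them is uncertain. Hspa1b stood at 1553 ± 354 CPM in cDC2-like cells (n = 10, lowest 1029, median 1668, highest 2001), at 1062 ± 524 CPM in ILC2-like cells (n = 9, lowest 383, median 918, highest 1989) and at 25.1 ± 19.5 CPM in neutrophil-like cells (n = 7, lowest 0, median 21.0, highest 55.2). Every cDC2-like value was above every neutrophil-like value, and the cDC2-like and ILC2-like ranges overlapped. Hspa1a gave 1509 ± 349 CPM in cDC2-like and 34.2 ± 22.4 CPM in neutrophil-like cells. Dnajb1 was highest in ILC2-like cells (403 ± 208 CPM). In cDC2-like cells all 3 were higher (Hspa1a log2 1.52, SE 0.10, edgeR adjusted p = 3.75e-17), and in neutrophil-like cells all 3 were lower (Hspa1a -3.38, SE 0.26; Hspa1b -3.98, SE 0.32). In monocyte-like cells Dnajb1 and Hspa1b were lower and in cDC1-like cells Hspa1a and Hspa1b were. Those Hspa1b and cDC1-like Hspa1a values lay above 0 once neutrophil-like and T-like cells were among the classes compared (0.16 in monocyte-like; 0.05 for Hspa1b and 0.09 for Hspa1a in cDC1-like), so these directions rest on which classes are compared. In ILC2-like cells Dnajb1 was higher, Hspa1a lower, and Hspa1b did not pass. In macrophage-like cells Hspa1a was higher and Dnajb1 lower. After each cell had been thinned to 1000 UMIs, 3.68 ± 3.001% of neutrophil-like and 56.8 ± 9.52% of cDC2-like cells held an Hspa1a UMI (unthinned 4.98% and 85.1%, at median depths of 1817 and 6931 UMIs). In T-like and NK-like cells the thinned shares were 17.5 ± 9.73% and 11.004 ± 2.64%. A share of cells that comes from free RNA was not measured, since empty droplets were not used here.

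Rgs1, a regulator of chemokine receptor signalling, and Cd69, which retains lymphocytes in tissue, are marks of activated or resident lymphocytes. Rgs1 was highest in migratory DC-like cells, with 1167, 341, 1444 and 858 CPM in the 4 animals, followed by NK-like cells (617 ± 453 CPM, n = 5), T-like cells (440 ± 72.8 CPM, n = 6) and macrophage-like cells (407 ± 139 CPM, n = 10), and these ranges overlapped. It passed as higher in macrophage-like (log2 1.80, SE 0.22) and T-like cells (1.27, SE 0.33). Cd69 was highest in ILC2-like cells (438 ± 172 CPM, n = 9, lowest 178, median 432, highest 746) and passed as higher in ILC2-like (log2 4.11, SE 0.25, edgeR adjusted p = 2.13e-16), neutrophil-like (2.04, SE 0.30) and T-like cells (2.19, SE 0.31). It was lower in cDC1-like and macrophage-like cells. After thinning, 26.7 ± 4.96% of ILC2-like cells and 0% of cDC1-like cells held a Cd69 UMI.

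Related genes that are not on the list were counted in the same fits, and their counts read against the shares of all genes called: 29.8% higher and 41.7% lower in neutrophil-like, 30.6% and 22.8% in monocyte-like, 21.6% and 10.1% in cDC2-like, 29.1% and 18.1% in macrophage-like, 24.1% and 31.3% in ILC2-like, 20.8% and 18.1% in cDC1-like and 23.1% and 15.9% in T-like cells. Of 30 other early response genes, 25 were tested in neutrophil-like cells, where 21 were higher and 2 lower; Ppp1r15a (log2 4.18), Csrnp1 (4.20) and Plk3 (5.05) had the lowest p. In monocyte-like cells 19 of 23 were higher and 1, Id2, was lower, in cDC2-like cells 11 higher and 5 lower, in macrophage-like cells 10 and 4, in ILC2-like cells 9 and 8, and in T-like cells 4 of 25 and 11. In cDC1-like cells 1 was higher (Id2, log2 2.15) and 17 lower. Of 19 other NF-kB targets and feedback genes, 16 of 17 tested were higher in neutrophil-like cells, among them Il1b (log2 7.39), Nfkbid (4.42) and Icam1 (4.23), and 12 of 18 in monocyte-like cells, led by the chemokines Ccl3 (3.89), Ccl4 (3.15) and Cxcl2 (3.82). In cDC2-like cells 10 of 18 were higher and 1 lower, in ILC2-like cells 7 and 6, in macrophage-like cells 6 and 5, in cDC1-like cells 1 and 8, and in T-like cells 0 of 17 and 6. Of 12 other chaperones, 9 were lower and 0 higher in neutrophil-like cells (Hsp90ab1 -3.82, Hspe1 -4.80, Hspa8 -2.06), and 9 were higher and 0 lower in cDC2-like cells (Hsph1 1.06, Hsp90ab1 0.52, Hspe1 0.56). In ILC2-like cells, where Dnajb1 was higher, 6 of these chaperones were lower and 1 higher. Monocyte-like cells had 3 higher and 3 lower, macrophage-like cells 3 and 4, and cDC1-like cells 2 and 3. In T-like cells 6 were higher and 1 lower, while Hspa1a was lower there (log2 -0.69, SE 0.20). These counts have no test of the list as a whole.

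Across single cells of 1 class, the variance over the mean was also higher for these genes than for the median gene. This measure can rise with the level of a gene, and genes were not matched by level. The part of level in the difference was not tested. After thinning to 1000 UMIs per cell, the variance over the mean across cells had a median of 2.42 over the 31 genes above a floor of 0.05 UMIs per cell in neutrophil-like cells, where the median over all 2224 such genes was 1.11. In ILC2-like cells these medians were 1.86 and 1.01, in cDC2-like cells 1.72 and 1.04, in macrophage-like cells 1.60 and 1.06, in monocyte-like cells 1.48 and 1.05, and in cDC1-like cells 1.32 and 0.997. All 31 genes in neutrophil-like and all 32 in ILC2-like cells lay above the median of all genes, and 22 of 27 did in migratory DC-like cells. Within a class, pairs of the genes were only weakly related over cells: the median Pearson r ran from 0.04 in neutrophil-like cells (584 cells, 406 pairs) to 0.18 in cycling-like cells (207 cells, 231 pairs). The highest r in a class of over 100 cells was that of Hspa1a with Hspa1b in cycling-like cells, 0.59; it was 0.56 in cDC2-like and 0.33 in monocyte-like cells. Among other pairs, Fos with Dusp1 reached 0.52 in cycling-like and 0.45 in macrophage-like cells, and Junb with Zfp36 0.49 in macrophage-like cells. Cells in these correlations share libraries, animals and depth, and the genes have few UMIs per cell. The cycling-like class also mixes cell types. By the marker gate its 226 cells held 97 cDC2, 46 macrophage, 33 cDC1, 9 monocyte and 8 ILC2 cells. What part this mixing has in the r values of that class was not tested.

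Part of the spread within a class lay between its clusters, which had been made without these genes. Genes outside the lists that vary with them stayed in the clustering, and their part in the clusters was not tested. Cluster 37 of the cDC2-like cells, led by Cd209a, Mt2, Tnfsf9 and Dcstamp, had a summed level of 28095 ± 2607 CPM (n = 9 animals, lowest 24246, highest 32884). Of the other 5 cDC2-like clusters, 3 had 10 or more cells in at least 3 animals, with 13313 ± 1997 (n = 8), 11068 ± 2989 (n = 9) and 10424 ± 1284 CPM (n = 4) and no animal above 15856 CPM. The remaining 2 were too small for a spread over animals. Cluster 33 (66 cells) had 7034 CPM over its pooled cells. Cluster 46 (30 cells) had 28756 CPM, close to cluster 37; its mean marker score was highest for endothelium, so its class name is weak. The chaperones were higher in cluster 37 as well, 5935 ± 974 CPM against means of 2016 to 2683 CPM in those 3 clusters, and so were the AP-1 genes, 8184 ± 1300 CPM against 3067 to 3997 CPM. Median depth was 6913 UMIs per cell in cluster 37 and 6182 to 7399 in those 3, 7587 in cluster 33 and 2005 in cluster 46. Cluster 37 held 3.51, 14.9, 23.4, 14.8 and 26.3% of the cDC2-like cells of wild-type animals 1 to 5 and 18.4, 27.3, 33.3, 42.7 and 22.8% of those of knock-out animals 1 to 5, so the genotypes overlapped. Unnamed clusters are outside this comparison. Of these, cluster 11 (132 cells) shared the leading genes Dcstamp, Tnip3 and Mt1 with cluster 37. It had 21882 CPM over its pooled cells, with chaperones at 3617 CPM. Among macrophage-like cells the cluster led by Ccl24, Cxcl3 and Arg1 had 19943 ± 3708 CPM (n = 4) with chaperones at 961 ± 220 CPM, but 0 macrophage markers were among its 10 leading genes, so its class name is weak. The cluster led by Retnla and Lyz1 had 17360 ± 3691 CPM (n = 9) with chaperones at 4276 ± 1002 CPM. The 3 neutrophil-like clusters differed little, at 63582 ± 13079, 63764 ± 7840 and 65947 ± 15307 CPM.

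**Figure D4:**
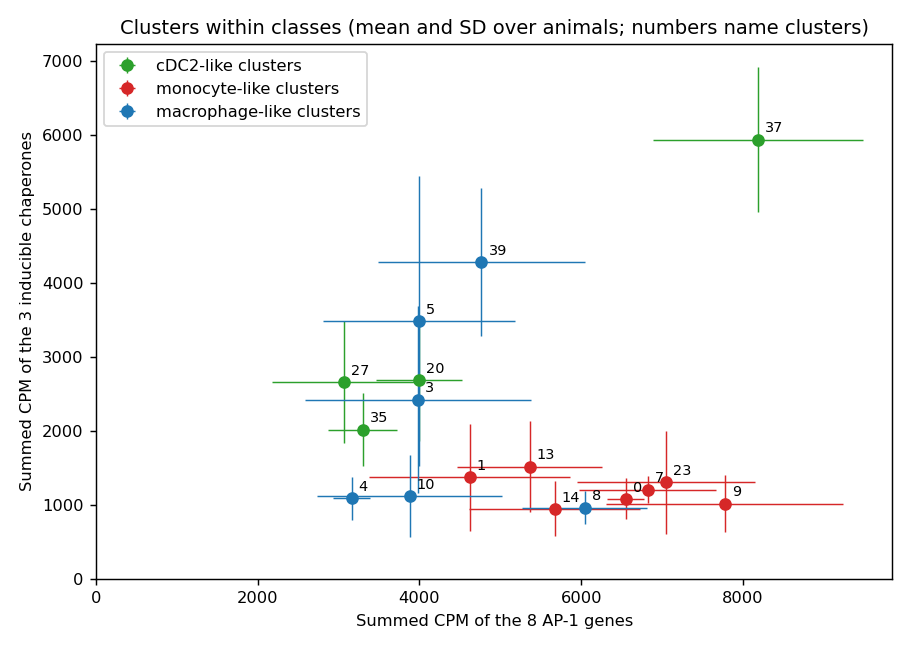
Summed CPM of the 8 AP-1 genes (horizontal axis) and of the 3 inducible chaperones (vertical axis) in each cDC2-like, monocyte-like and macrophage-like cluster with 10 or more cells in 3 or more animals; points are means over animals, bars are SD and numbers name the clusters. Cluster 37 of the cDC2-like cells is the highest of the clusters plotted on both axes, at 8184 ± 1300 and 5935 ± 974 CPM.

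Between animals, the median spread of these genes was above that of all genes in every class tested. Genes were not matched by level here either. Sums over all CD45+ cells also vary with cell composition, with 0.256 to 35.3% neutrophil-like cells per animal. The part of level and composition was not tested. The median biological coefficient of variation from the edgeR fits was 0.308 over the 37 genes and 0.193 over all genes in all CD45+ cells, 0.316 and 0.140 in ILC2-like cells, 0.277 and 0.217 in macrophage-like cells, 0.240 and 0.166 in cDC2-like cells, 0.217 and 0.168 in monocyte-like cells and 0.211 and 0.167 in cDC1-like cells. The 2 wells of the pool give the technical part. In all CD45+ cells the summed level had an SD of 1036 CPM between wells of an animal and of 2999 CPM between animals. In monocyte-like cells these were 756 and 2328 CPM (8 animals), in cDC2-like cells 1450 and 2698 CPM (10 animals), in macrophage-like cells 1625 and 2399 CPM (10 animals), and in ILC2-like cells 3807 and 3807 CPM (5 animals). In T-like cells (1782 and 1291 CPM, 4 animals) and cDC1-like cells (905 and 859 CPM, 3 animals) the first value was the larger. The SD between wells is that of a single well and includes any shift between wells and the sampling of different cells. The SD between animals is that of the mean of both wells. The 2 values are therefore not on the same scale, and their order does not rank the sources of spread. Neutrophil-like cells were higher in well 2 in 5 of 5 animals, by 2652 to 14347 CPM, and cDC1-like cells were lower there in 3 of 3 animals (differences of -1653 to -445 CPM). Over all cells 4 of the 37 genes differed between wells, where 4.71% of 8636 genes did: Jund (log2 0.24), Junb (0.16) and Klf2 (0.17) were higher and Btg2 (-0.24) lower in well 2. Both genotypes were loaded in both wells.

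The series compares the 2 genotypes, and in that comparison 0 of the 37 genes passed in all CD45+ cells (edgeR, n = 5 per genotype; 0.0393% of 10175 genes passed). At an unadjusted p under 0.05 there were 3 of the 37 (8.11%), close to the 6.85% of all genes. None passed in any class either: 0 of 21 tested in cDC1-like cells (0.096% of all genes passed), 0 of 35 in cDC2-like (0.0173%), 0 of 29 in cycling-like (0.0245%), 0 of 26 in ILC2-like (0.452%), 0 of 34 in macrophage-like (0.0155%) and 0 of 34 in monocyte-like cells (0.919%). At an unadjusted p under 0.05 these classes had, in the same order, 4 (19%; all genes 6%), 3 (8.57%; 4.67%), 0 (all genes 3.31%), 3 (11.5%; 9.5%), 2 (5.88%; 3.54%) and 4 (11.8%; 16.2%) of the tested genes. Animals with fewer than 10 cells of a class were left out, which left 5 wild-type and 4 knock-out animals for monocyte-like and ILC2-like cells, 4 and 5 for cDC1-like and 4 and 3 for cycling-like cells; neutrophil-like, T-like, NK-like and migratory DC-like cells had too few knock-out animals for a test. DESeq2 also called 0 of the 37 genes in each of these comparisons. A miss does not show that the genotypes were alike, given the spread between animals above.

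Fos in all CD45+ cells stood at 1703, 1236, 993, 984 and 1470 CPM in wild-type animals 1 to 5 and at 1527, 1051, 927, 1397 and 1786 CPM in knock-out animals 1 to 5. Both genotypes held high and low animals, and the ranges overlapped (exact permutation p = 0.762, two-sided, 252 splits). Dusp1 stood at 2165, 1238, 801, 781 and 1380 CPM and at 1114, 665, 593, 1039 and 1566 CPM. Nfkbia stood at 1461, 714, 458, 492 and 807 CPM and at 588, 357, 322, 488 and 681 CPM. Wild-type animal 1 was highest for both, and the ranges overlapped. That animal had 35.3% neutrophil-like cells, against 0.256 to 12.6% in the other 9, and in sums over all cells more cells of a class and more RNA per cell cannot be told apart. Hspa1b, low in neutrophil-like cells, was lowest in wild-type animal 1: 467, 865, 949, 973 and 1169 CPM in wild-type and 573, 825, 1062, 1417 and 904 CPM in knock-out animals. The summed level of all 37 genes was 16293 ± 3559 CPM in wild-type and 14756 ± 2460 CPM in knock-out animals. Without the neutrophil-like cells it was 14002 ± 1781 and 14298 ± 2204 CPM (n = 5 each), with overlapping ranges.

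The other leading genes of each role overlapped between genotypes too. Ier3 stood at 1639, 883, 430, 675 and 734 CPM in wild-type and 1151, 258, 343, 513 and 918 CPM in knock-out animals. Egr1 stood at 683, 304.2, 279, 228 and 360 CPM and at 320, 337, 292, 349 and 326 CPM. The knock-out animals were close to each other in Egr1, and the wild-type spread came from animal 1. Klf6 ranged from 683 to 1019.6 CPM in wild-type and from 674 to 871 CPM in knock-out animals. Mcl1 ranged from 554 to 990 CPM in wild-type and from 495 to 788 CPM in knock-out animals. The decay factor Zfp36 ranged from 868 to 2113 CPM and from 816 to 1536 CPM. For these 3 genes both ends of the knock-out range lay below those of the wild-type range, with wide overlap. Nr4a1 stood at 315, 150, 174, 146 and 292 CPM in wild-type and 177, 184, 108, 194 and 183 CPM in knock-out animals.

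Egr2 and Zfp36l1 were the only 2 of the 37 genes whose genotypes did not overlap in all CD45+ cells, where 1.46% of 10175 genes did not overlap. Egr2, a factor of macrophage and lymphocyte activation, stood at 43.1, 47.1, 44.0, 30.5 and 45.4 CPM in wild-type and at 53.6, 61.0, 54.8, 63.5 and 58.4 CPM in knock-out animals. Every knock-out animal was above every wild-type animal (exact permutation p = 0.00794, the smallest that 252 splits can give; edgeR log2 0.53, SE 0.14, adjusted p = 0.303). In the class fits its log2 value was 0.64 (SE 0.20) in cDC2-like, 0.64 (SE 0.30) in macrophage-like and 0.13 (SE 0.29) in monocyte-like cells. Zfp36l1 stood at 300.3, 303.9, 280, 222.7 and 293 CPM in wild-type and at 177, 201, 204, 222.6 and 217 CPM in knock-out animals. All knock-out animals were lower, though wild-type animal 4 and knock-out animal 4 were next to each other (exact permutation p = 0.00794; edgeR log2 -0.39, SE 0.13, adjusted p = 0.532). Its log2 value was below 0 in all 6 classes tested: -1.09 (SE 0.30, adjusted p = 0.196) in cDC1-like, -0.60 (SE 0.24) in ILC2-like, -0.42 (SE 0.15) in cDC2-like, -0.24 (SE 0.18) in monocyte-like, -0.20 (SE 0.26) in cycling-like and -0.09 (SE 0.19) in macrophage-like cells. In cDC1-like cells the wild-type animals 2 to 5 had 162, 107, 89.3 and 129 CPM and the knock-out animals 39.8, 55.3, 74.8, 71.3 and 55.2 CPM. Without monocyte-like and neutrophil-like cells the values over all remaining cells were 0.70 for Egr2 and -0.37 for Zfp36l1. Btg1 (585 ± 107 against 446 ± 53.0 CPM) and Rgs1 (226, 306.1, 228, 191 and 309.2 CPM in wild-type and 174, 187, 189.9, 215 and 175 CPM in knock-out animals) were the other genes with an exact permutation p under 0.05, 0.0159 each, and their ranges overlapped (edgeR adjusted p = 0.817 and 0.623).

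The lowest adjusted p of the 37 genes in any genotype fit was that of Cd69 in monocyte-like cells (edgeR log2 1.24, SE 0.32, adjusted p = 0.0707). Its level there was low: 38.2, 48.2, 15.0, 33.7 and 23.6 CPM in wild-type animals 1 to 5 and 75.7, 0, 68.2 and 87.2 CPM in knock-out animals 1, 2, 4 and 5. Knock-out animals 1, 4 and 5 were above all wild-type animals. Knock-out animal 2 had only 15 monocyte-like cells, so its 0 cannot be told from a low level like those of the wild-type animals. Without knock-out animal 2 Cd69 passed (log2 1.35). In the same class Ier5 was 0.34 (SE 0.15), Ier3 -0.54 (SE 0.23) and Myc -1.24 (SE 0.45), each with an unadjusted p under 0.05 and none past the adjusted threshold. The same held for Atf3, Egr1 and Ier5 in cDC1-like cells (0.86, 0.82 and 0.90), Myc in cDC2-like cells (0.60), Jun and Jund in ILC2-like cells (-0.69 and 0.37) and Nr4a2 in macrophage-like cells (-0.93). The median log2 value over the 37 genes in all cells was -0.15, against 0.01 over all genes, and it lay between -0.20 and 0.01 in the 6 classes.

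**Figure D5:**
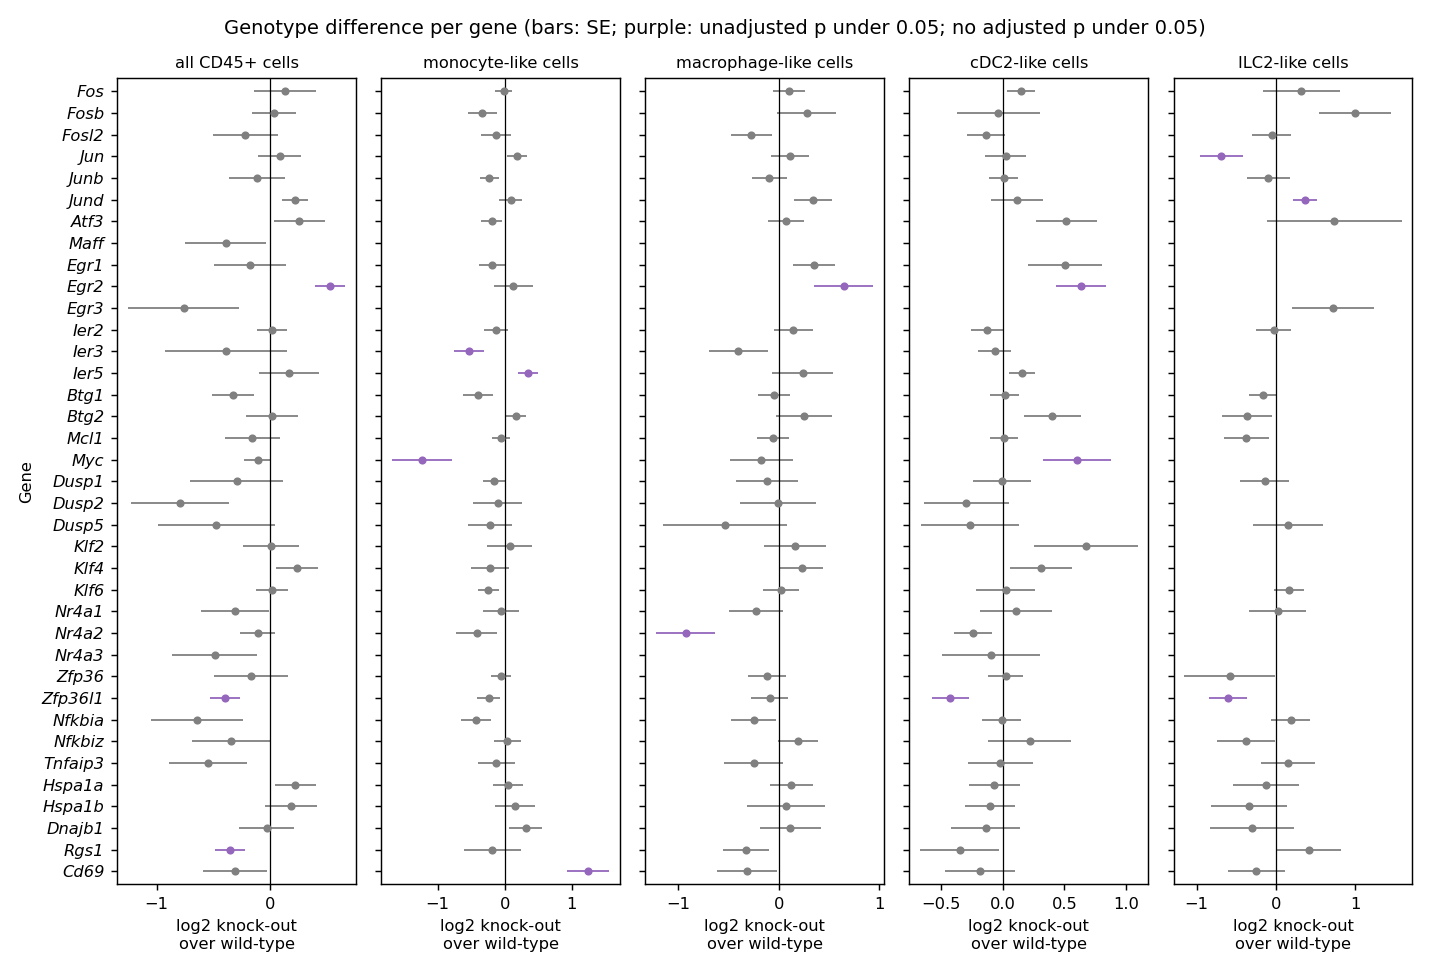
Log2 difference between knock-out and wild-type animals for each gene in all CD45+ cells and in monocyte-like, macrophage-like, cDC2-like and ILC2-like cells, with standard errors; purple marks an unadjusted p under 0.05, and each panel has its own horizontal scale. No gene passed an adjusted p of 0.05 in any panel; Egr2 (0.53), Zfp36l1 (-0.39) and Rgs1 (-0.35) are the 3 purple genes in all CD45+ cells.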

How the data were processed

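Single-cell RNA libraries (10x 3′ v3) of sorted viable CD45+ esophageal cells of 5 wild-type and 5 knock-out mice were used. The authors deposited UMI counts per gene and cell; the tools and build named are mm10, R 4.0.5 and Cell Ranger 6.0.1 (per the submitters' processing notes). All 6054 deposited cells were kept, no doublet caller was run, and animals were taken from the deposited hashtag assignment. Counts were clustered without the 37 genes and 61 related genes (scanpy 1.11.5: 2000 variable genes, 30 components, 15 neighbours, Leiden resolution 3). A cluster was named where 3 or more of a type's markers were raised by 1 log2 unit, 20 CPM added. Counts were summed per animal and class (at least 10 cells; 3 animals per genotype for genotype tests) and tested over all genes with edgeR 4.0.16 (filterByExpr, TMM, robust quasi-likelihood, Benjamini-Hochberg adjusted p under 0.05; R 4.3.3), with the animal as a block between classes and wells. DESeq2 1.42.0, total-UMI scaling, no filter, single wells, a marker gate and leaving out animals were alternatives, and the code was tested on simulated data. Single genes over all cells had an exact two-sided permutation test over 252 splits of the animals (own code), whose smallest p is 0.00794. Cells of all animals were sorted and captured in 1 pool, so p-values measure the spread between these animals in 1 experiment. The 37 genes, the related lists and the tests were chosen with earlier results of these data known. Any of the 37 genes could be named. The gene with the most UMIs of each role is given in every animal, except that Klf6, Mcl1 and Zfp36 are given as ranges. Related genes are named by the 3 lowest p of a list.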

Additional observations from a re-analysis of the deposited data

Results flagged for a closer look

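Of 88 groups of 4 or 5 animals of 1 genotype, 6 held an animal far from the others, where chance alone gives about 1 in 20. The groups were those of each gene in all CD45+ cells and of the summed level in single classes. All 6 were genes in all CD45+ cells. Wild-type animal 1 stood high in 3 genes: Egr1 at 683 CPM (others 228 to 360), Ier5 at 292 CPM (others 153 to 193) and Dusp5 at 195 CPM (others 57.2 to 86.4). Neutrophil-like cells, in which these 3 genes were higher, made up 35.3% of that animal's cells. Egr2 was low in wild-type animal 4, at 30.5 CPM (others 43.1 to 47.1). Jund was low in knock-out animal 1, at 575 CPM (others 796 to 857). Nr4a1 was low in knock-out animal 3, at 108 CPM (others 177 to 194). The part of cell composition in these values was not tested.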

How the results depend on the processing

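No paired analysis was possible because the replicate numbers only name the hashtags and pair no wild-type with a knock-out animal. The count of 30 genes higher in neutrophil-like cells was 30 in all 14 alternatives. Of the 37 genes, 1 instead of 0 passed between genotypes in cDC1-like cells with well 2 only (Fos), 1 in cDC2-like cells under the marker gate (Egr2) and 1 in cycling-like cells without the 5% of cells with the most UMIs (Nfkbia). In monocyte-like cells 3 passed with no filter on low counts (Cd69, Myc, Ier3), and 1 passed with well 1 only, with 20 or more cells per animal and without knock-out animal 2 (range on leaving out animals 0 to 1). Between classes, the comparison of 7 gave 1 gene higher in cDC1-like, 3 lower in cDC2-like and 10 higher in macrophage-like cells. With well 1 only, 0 were lower in cDC2-like cells, and with either well alone 6 were lower in macrophage-like cells. In T-like cells 2 to 6 were higher on leaving out animals and 7 with total-UMI scaling. With no filter, 9 differed between wells. In the comparison of 7 classes 12 values turned: Hspa1b 0.046 and Hspa1a 0.087 in cDC1-like, Klf2 -0.26 in cDC2-like, Dusp2 -0.29, Myc 0.46 and Nfkbiz -0.15 in macrophage-like, and Klf2 -0.12, Btg1 -0.076, Nfkbia -0.11, Myc 0.50, Nfkbiz -0.11 and Hspa1b 0.16 in monocyte-like cells; there the classes averaged as others differ by construction. Jun in ILC2-like cells was 0.21 with well 2 only, and the cause was not tested. Over all genes, genotype calls in all CD45+ cells ranged from 1 to 74 (4 in the main test, 74 with DESeq2), in monocyte-like cells from 0 without knock-out animal 5 to 342 with no filter (47), in cDC1-like from 0 to 14 (2), cDC2-like 1 to 20 (1), cycling-like 0 to 7 (1), ILC2-like 0 to 13 (7) and macrophage-like cells 0 to 7 (1). DESeq2 called 142 genes between wells instead of 407. Called genes between classes fell to 1027 in cDC1-like, ranged from 1183 to 2888 in cDC2-like and fell to 2049 in ILC2-like cells. Depth limits the shallow neutrophil-like cells and low genes such as Egr2, Egr3, Maff and Myc.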
